A study of Zea mays with 3 samples.

Results

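The transcripts described here are those whose signal climbed at each of 2 successive steps of maize anther growth, from 1.0 to 1.5 mm and from 1.5 to 2.0 mm. They were chosen by their measured levels. A probe was kept if the mean log2 level rose by at least 0.7 at both steps in both lines, and if the lines differed by less than 0.58 at each length. Of 42030 probes for transcripts, 21 met this rule. RNA was taken from whole anthers of a Mu active line (Mu-active), in which Mutator transposons move, and of a Mu inactive line (Mu-inactive), in which they are silent. No further treatment was given, and the labels state neither the genetic background of the lines nor the age of the plants. Both lines were hybridized together, in the 2 dye channels of 4 arrays at each length, with the dyes exchanged on 2 of the 4, which gives 12 arrays and 24 channels. Arrays are numbered 1 to 4 within a length, and the numbers carry no identity from one length to another. A level is the normalized log2 intensity of a channel, and values are means ± SD over 4 arrays. The labels do not say whether the arrays came from separate plants.

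An anther lobe holds central meiotic cells surrounded by somatic layers, of which the tapetum is the innermost and feeds the meiotic cells, secretes the enzymes that free the microspores and supplies material for the pollen wall. In maize, anther length is a good guide to the internal stage. Anthers of 1.0 mm are shortly before meiosis, which has begun by 1.5 mm or by 2.0 mm, depending on the inbred. Because the background of these lines is not stated, it is not known whether their 1.5 mm anthers were in meiosis. Over this time the tapetum becomes a secretory tissue. A whole anther is a mixture, so more cells of a type and more RNA per cell cannot be told apart in these values.

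All 4 arrays of a length were on 1 slide, so length and slide cannot be told apart, and no p-value is given between lengths. The slide of the 1.0 mm anthers was also read with a differently named extraction protocol from the other slides. Control transcripts that were added to the RNA (10 E1A spike-ins, which no plant makes) also read higher on the later slides after normalization. They were bright at every length, with channel means of 10.67 to 12.84. Their mean rise from 1.0 to 1.5 mm was 0.66 in the Mu-inactive line and 1.35 in the Mu-active line, and from 1.5 to 2.0 mm it was 0.49 and 0.10. The negative controls moved by 0.04 or less at each step. The amount of spike-in added to each sample is not given in the sources used here, and the part of this drift in the rises below was not tested.

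The oligonucleotides themselves are shown for the 3 selected probes for which a sequence was given, which include the carbonic anhydrase and the fatty acid elongation enzyme described below. They are written 5′ to 3′, with runs of 6 or more of the same base in capitals. Each is 60 bases long, and each has 41.7% G and C, against a median of 48.3% over 2774 probes with a sequence.
A_92_P000766 (GRMZM2G009633): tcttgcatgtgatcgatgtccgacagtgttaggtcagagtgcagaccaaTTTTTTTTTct
A_92_P000392 (GRMZM2G124026): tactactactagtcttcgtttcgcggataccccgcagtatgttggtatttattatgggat
A_92_P001315 (GRMZM2G164974): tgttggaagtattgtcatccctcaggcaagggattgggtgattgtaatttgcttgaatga
The first of them ends in a run of T followed by 2 other bases, and the others hold no run of this length.

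Only 7 of the 21 probes were paired with a gene model, and 3 of these carry a protein description. A_92_P000766 measures GRMZM2G009633, which holds the catalytic domain of an alpha-class carbonic anhydrase, an enzyme family that interconverts carbon dioxide and bicarbonate. A_92_P001315 measures GRMZM2G164974, a very-long-chain 3-ketoacyl-CoA synthase, the condensing enzyme that lengthens fatty acids for waxes, cuticle and storage lipids. A_92_P017642 measures GRMZM2G059392, a member of the conserved family CHP00730, which in rice includes the LOG enzymes that release active cytokinins. The other 4 gene models, GRMZM2G124026, GRMZM2G118800, GRMZM2G082670 and GRMZM5G898684, have no stated function, and the remaining 14 probes carry only the name of an expressed sequence.

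From 1.0 to 2.0 mm, the levels of the 21 probes rose by a median of 2.71 on the log2 scale in the Mu-inactive line (range 1.72 to 4.72) and by a median of 2.67 in the Mu-active line (1.72 to 5.28). In linear terms, these are 3.29- to 26.4-fold and 3.29- to 38.9-fold. The median first step was 1.23 in the Mu-inactive line and 1.08 in the Mu-active line, and the median second step was 1.10 and 1.38. These values chose the probes and are a description only. Of all probes, 1.62% rose by at least 0.7 in both lines at the first step, 2.1% at the second step and 0.162% (68 probes) at both, and 47 of those 68 were set aside because the lines differed by 0.58 or more at some length.

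**Figure D1:**
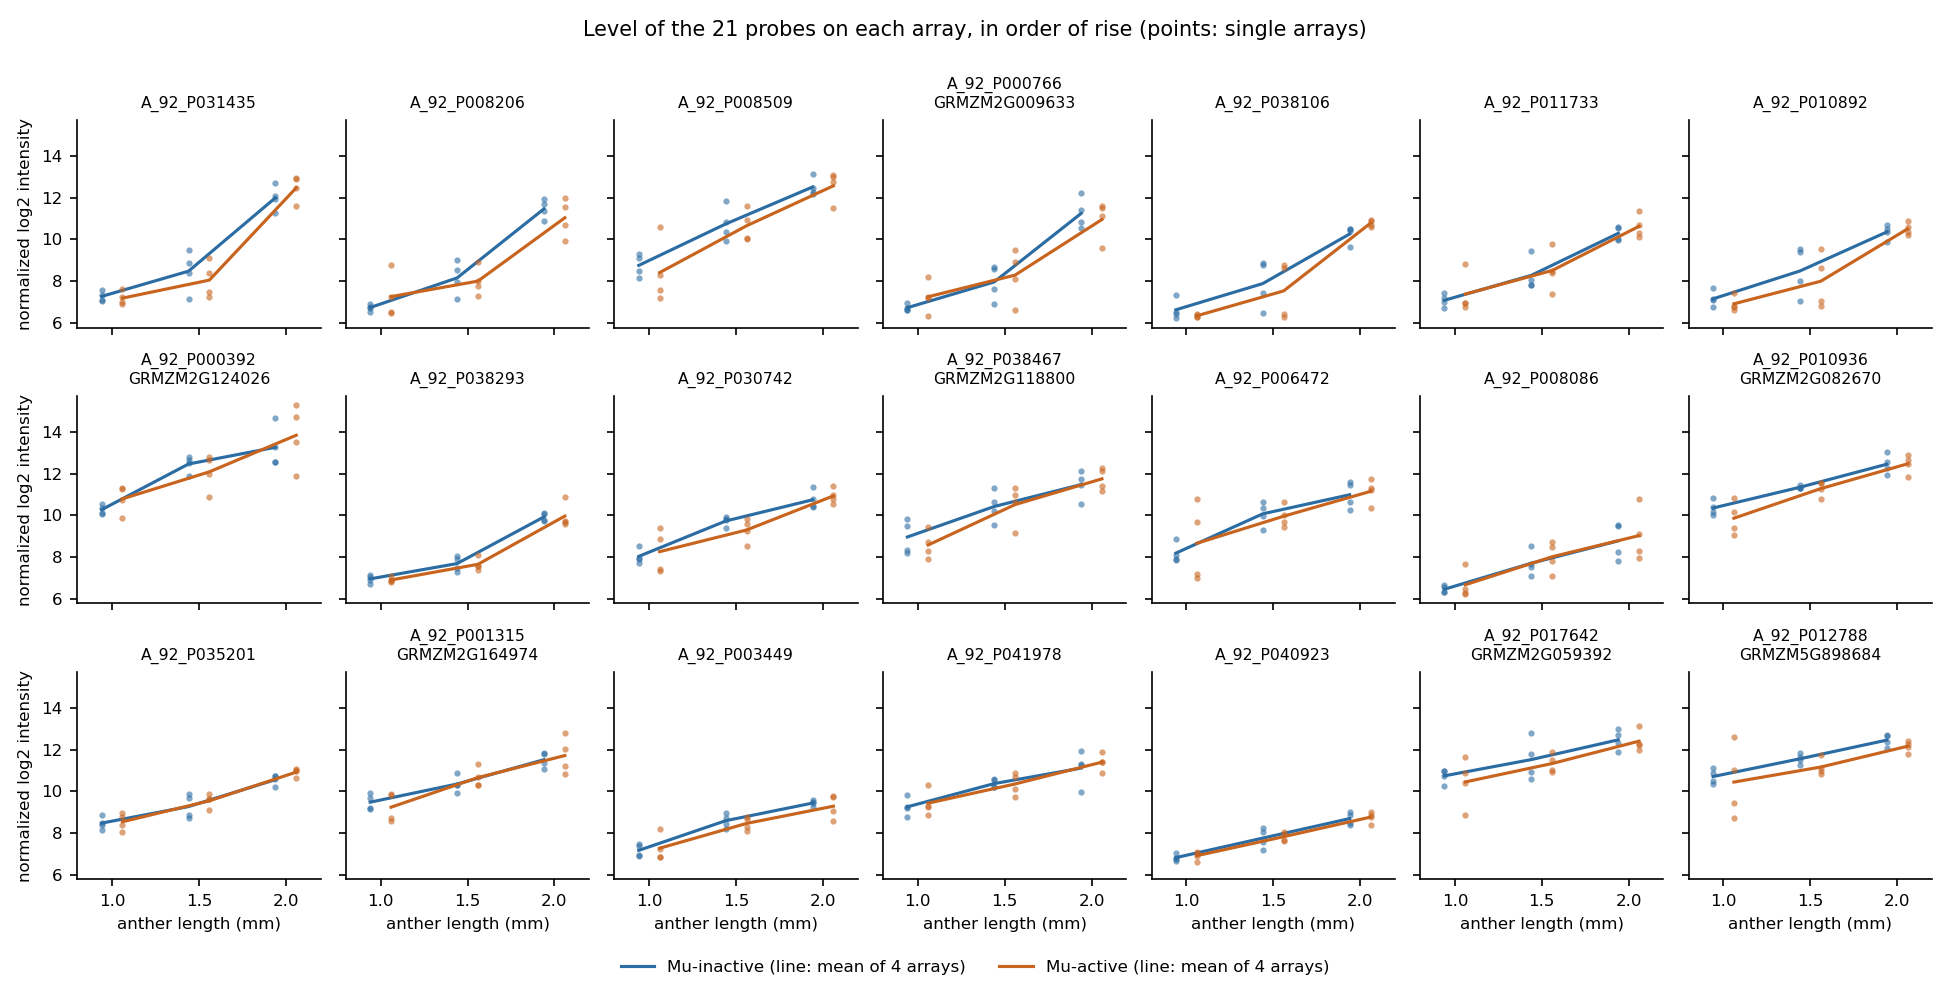
Normalized log2 intensity (vertical axis) against anther length in mm (horizontal axis) for each of the 21 probes, in order of their rise. Points are single arrays and curves join the means of 4 arrays, in blue for Mu-inactive and orange for Mu-active; the means climb at both steps in each panel, while only A_92_P038293 and A_92_P040923 show no overlap between the points of neighboring lengths.

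The carbonic anhydrase GRMZM2G009633 (A_92_P000766) had the largest rise among the probes with a gene model. In the Mu-inactive line it read 6.95, 6.61, 6.73 and 6.62 on arrays 1 to 4 at 1.0 mm, 8.59, 8.69, 7.64 and 6.92 at 1.5 mm, and 12.20, 10.55, 11.39 and 10.82 at 2.0 mm. In the Mu-active line it read 7.21, 6.35, 8.18 and 7.26, then 9.49, 8.12, 8.91 and 6.63, then 11.51, 11.58, 11.11 and 9.60. All 2.0 mm arrays were above all earlier arrays, whereas the 1.5 mm arrays reached down into the 1.0 mm range, on array 4 in both lines and on array 2 in the Mu-active line. The first step was 1.23 and 1.04 and the second 3.28 and 2.66 (Mu-inactive and Mu-active), so 27.3% and 28.0% of the rise fell in the first step. At 1.0 mm this probe was well above background on all 4 Mu-inactive arrays and on 3 of 4 Mu-active arrays.

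The fatty acid elongation enzyme GRMZM2G164974 (A_92_P001315) rose more evenly. Its level was 9.48 ± 0.37, 10.35 ± 0.40 and 11.52 ± 0.38 at 1.0, 1.5 and 2.0 mm in the Mu-inactive line (SD, n = 4). In the Mu-active line it was 9.24 ± 0.71, 10.66 ± 0.48 and 11.71 ± 0.88. The 4 arrays of each length lay above the 4 of the length before, except between 1.5 and 2.0 mm in the Mu-active line, where 2.0 mm array 4 read 10.83 and 1.5 mm array 2 read 11.33. From 1.0 to 2.0 mm the rise was 4.09-fold in the Mu-inactive line and 5.56-fold in the Mu-active line.

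The CHP00730 family gene GRMZM2G059392 (A_92_P017642) had one of the smallest rises, 3.29-fold and 3.88-fold over both steps. Its Mu-inactive arrays read 10.99, 10.99, 10.26 and 10.73 at 1.0 mm, 11.77, 12.79, 10.58 and 10.94 at 1.5 mm, and 12.98, 12.29, 12.70 and 11.89 at 2.0 mm. Its Mu-active arrays read 10.86, 8.87, 10.42 and 11.65, then 11.03, 11.90, 11.49 and 10.91, and finally lay at 12.40 ± 0.50. Neighboring lengths overlapped at both steps in the Mu-inactive line and at the first step in the Mu-active line. It met the rule in 6 of the 12 sets from which 1 array had been left out.

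Among the gene models of no stated function, GRMZM2G124026 (A_92_P000392) had the largest first step of all 21 probes in the Mu-inactive line. Its Mu-inactive level went from 10.27 ± 0.21 to 12.46 ± 0.39 and then to 13.26 ± 0.99. Its Mu-active level went from 10.79 ± 0.65 to 12.08 ± 0.87 and then to 13.84 ± 1.50. The first step held 73.3% of the rise in the Mu-inactive line and 42.5% in the Mu-active line. At 2.0 mm the Mu-active arrays spread from 11.88 on array 4 to 15.26 on array 2, so the upper length overlapped the middle one. This probe was also the closest to the bound on the line difference, and it met the rule in 5 of the 12 sets with 1 array left out, the fewest of the 21.

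GRMZM2G118800 (A_92_P038467) rose by 1.46 and 1.05 in the Mu-inactive line and by 1.94 and 1.23 in the Mu-active line, with overlap between neighboring lengths at each of these steps. GRMZM2G082670 (A_92_P010936) rose from 10.35 ± 0.35 to 11.34 ± 0.08 and 12.45 ± 0.46 in the Mu-inactive line, with no overlap of neighboring lengths there. The Mu-active level rose from 9.86 ± 0.81 to 11.28 ± 0.37 and 12.47 ± 0.46, with overlap at the first step only.

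GRMZM5G898684 (A_92_P012788) was the closest to the step threshold, with a first step of 0.72 in the Mu-active line. Its Mu-active arrays at 1.0 mm had a mean of 10.44 ± 1.73, from 8.71 on array 2 to 12.61 on array 4, and array 4 was above every Mu-active array at 1.5 mm and at 2.0 mm, where the highest read 11.74 and 12.43. In the Mu-inactive line the 3 lengths did not overlap, at 10.71 ± 0.35, 11.56 ± 0.24 and 12.45 ± 0.29.

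Ranked by the lower of the rises in the 2 lines, the first 3 probes had no gene model. A_92_P031435 (TC297354) read 7.11, 7.33, 7.06 and 7.57 at 1.0 mm, 8.88, 9.48, 7.16 and 8.38 at 1.5 mm, and 12.70, 11.25, 12.08 and 11.93 at 2.0 mm in the Mu-inactive line. In the Mu-active line it read 7.22, 7.62, 6.89 and 7.01, then 7.22, 9.11, 8.40 and 7.46, then 12.88, 12.95, 11.59 and 12.45. At 1.5 mm, Mu-inactive array 3 and Mu-active arrays 1 and 4 were still within the 1.0 mm range, whereas the 2.0 mm arrays were far above both. Its rise over both steps was 26.4-fold and 38.9-fold, with 25.5% and 16.3% of it in the first step. A_92_P008206 (TC285785) also rose mainly at the second step, with levels of 6.74 ± 0.15, 8.15 ± 0.80 and 11.46 ± 0.46 in the Mu-inactive line. Its rise over both steps was 26.4-fold in that line and 13.7-fold in the Mu-active line, where array 4 at 1.0 mm read 8.76 and overlapped the 1.5 mm arrays. A_92_P008509 (TC313800) divided its rise evenly, with steps of 1.98 and 1.77 in the Mu-inactive line and 2.24 and 1.92 in the Mu-active line. Its Mu-active arrays spread from 7.21 to 10.58 at 1.0 mm and from 11.48 to 13.06 at 2.0 mm, and they overlapped the 1.5 mm arrays (10.04 to 11.59) on both sides.

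The shape of the rise thus varied among the 21 probes. The second step was the larger in both lines for 10 probes, the first for 5, and the lines differed in this for 6. These shapes, and those given for single probes, depended on the scaling. When each channel was shifted so that the spike-ins were level, the Mu-active first step was above 0 for 4 probes and the second for 21. On that scale A_92_P003449, for one, had Mu-active steps of -0.16 and 0.73. The values here are those before that shift. A_92_P038293 (TC300670) gave the smallest first steps of the Mu-inactive line, 0.73, and 24.6% of its rise fell in the first step in each line. At the other end, A_92_P006472 (TC310348) had 67.4% and 52.2% of its rise in the first step and A_92_P003449 (CO440788) 62.7% and 58.8%. A_92_P040923 (TC313563) was nearly linear, with steps of 0.94 and 0.93 in the Mu-inactive line and 0.91 and 0.94 in the Mu-active line.

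A_92_P011733 (TC292835) rose by 1.19 and 2.01 in the Mu-inactive line and by 1.13 and 2.12 in the Mu-active line, and with A_92_P040923 it was one of 2 probes that met the rule in each of the 12 sets with 1 array left out. A_92_P030742 (TC292842) had its larger step first in the Mu-inactive line (1.70, then 1.02) and second in the Mu-active line (1.04, then 1.63). A_92_P035201 (TC283413) was among the most even over arrays, at 8.48 ± 0.30, 9.27 ± 0.58 and 10.56 ± 0.24 in the Mu-inactive line and 8.54 ± 0.42, 9.55 ± 0.33 and 10.92 ± 0.20 in the Mu-active line, with overlap only at the Mu-inactive first step. A_92_P041978 (TC291113) had the smallest second step of the Mu-inactive line, 0.74, and its 2.0 mm array 2 there read 9.95, below all 4 arrays of 1.5 mm. A_92_P008086 (TC307699) started near background, with 2 of 4 arrays of each line above the cutoff for detection at 1.0 mm (3 SD above the average negative control), and A_92_P038106 was the other such probe, with 3 and 2. The other 19 passed on at least 3 arrays of both lines.

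**Figure D2:**
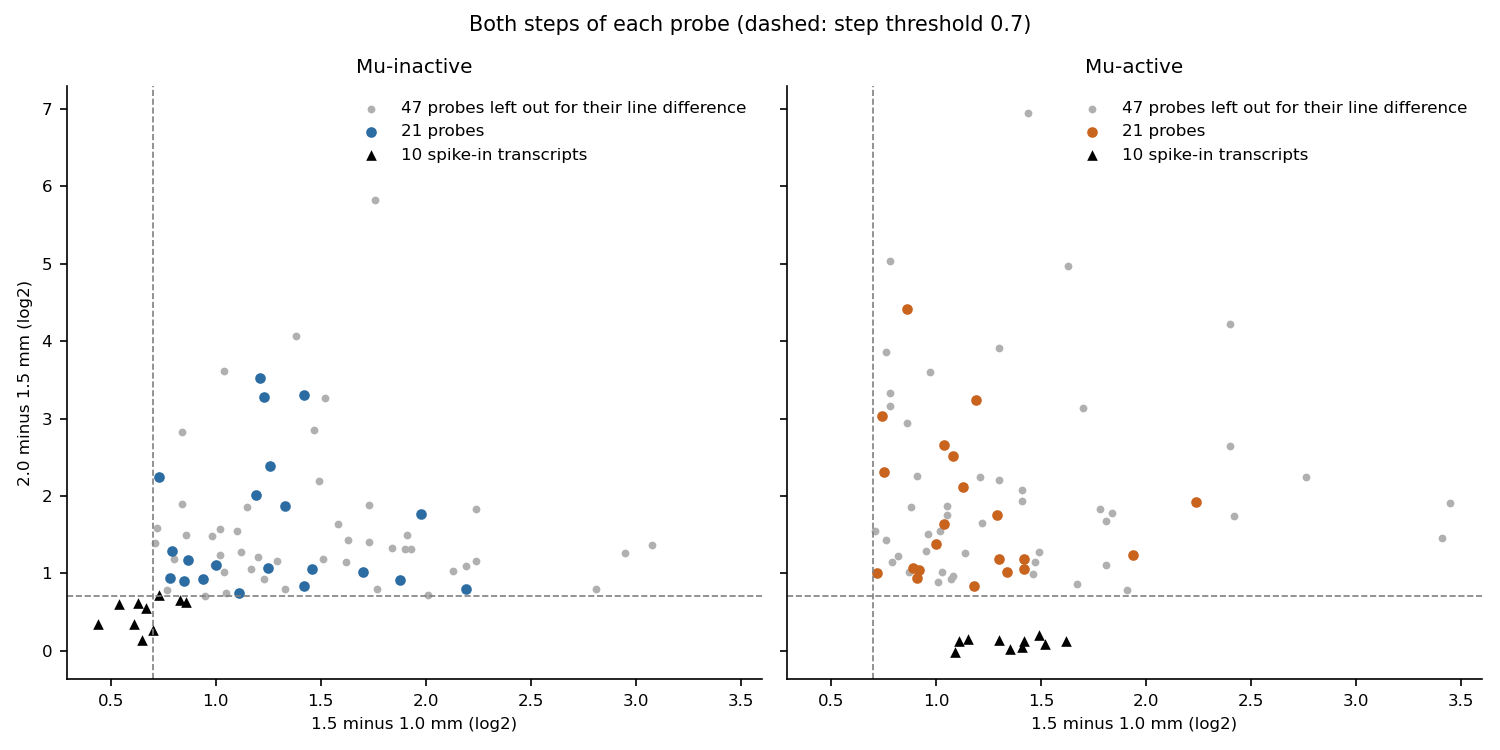
The second step (2.0 minus 1.5 mm, log2, vertical axis) against the first step (1.5 minus 1.0 mm, log2, horizontal axis) in the Mu-inactive line (left) and the Mu-active line (right). Colored points are the 21 probes, gray points the 47 probes left out for their line difference and triangles the 10 spike-in transcripts, which reach first steps of 0.86 and 1.62 and second steps of 0.72 and 0.20 (Mu-inactive and Mu-active); dashed lines mark 0.7.

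The rule asked for steps of at least 0.7, which is close to or above the highest second step of any spike-in. In the Mu-inactive line it is also above their mean first step of 0.66, and their highest was 0.86. So only the Mu-active first step is set against the spike-ins, which rose there by 1.09 to 1.62. It was larger than that of any spike-in for 2 probes, a description only, because the rule used these values. When each channel was shifted so that the spike-ins were level, the median first step became 0.57 in the Mu-inactive line and -0.26 in the Mu-active line, and the median second step 0.62 and 1.28. On that scale 4 probes still rose at every step in both lines, namely A_92_P008509, GRMZM2G118800, GRMZM2G082670 and the elongation enzyme GRMZM2G164974, and only A_92_P008509 rose by 0.7 or more at each. Thus the first step in the Mu-active line depended on the scaling. The median rise over both steps was 1.56 and 1.23 on that scale, a value bounded from below by the rule.

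The arrays of neighboring lengths were then compared. In the Mu-inactive line all 4 arrays were above all 4 of the length before for 14 probes at the first step and 15 at the second, where 8.48% and 7.04% of all probes were so ordered. Among Mu-active arrays this held for 4 probes at the first step and 13 at the second, against 6% and 5.69% of all probes. Because the rule asked for these rises, nothing is read from the differences from the background. Only A_92_P038293 and A_92_P040923 had no overlap at both steps in both lines, where 0.088% of all probes had none. Between 1.0 and 2.0 mm, 19 of the 21 probes, and 5.02% of all probes, had every later array above every earlier array in both lines, and again the rule chose the 21 for this rise.

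The spread over the 4 arrays was wide. The median SD of the 21 probes was 0.33, 0.58 and 0.44 at 1.0, 1.5 and 2.0 mm in the Mu-inactive line and 0.69, 0.56 and 0.55 in the Mu-active line, where the median over all probes was 0.13 to 0.16. The median level over all probes was 6.81 in each channel, nearer to the negative controls than the mean of the 21 probes. The spread was not compared with that of probes at a like level. The probes deviated together. In the Mu-active line at 1.0 mm, array 4 was the highest of 4 for 16 of the 21 probes and array 2 the lowest for 16, whereas these arrays were highest and lowest for 23% and 26.6% of all probes. The mean over the 21 probes was accordingly 7.92, 7.54, 8.34 and 9.10 on arrays 1 to 4. Array 4 was also the channel with the brightest raw signal, with a median intensity 3.15 times the mean of its negative controls against 1.49 to 2.38 in the other channels of this length, and the part of this in the result was not tested. Without it, the median first step of the Mu-active line rose from 1.08 to 1.42, and 43 probes in place of 21 met the rule, and 41 did so without 1.0 mm array 3.

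At 1.5 mm the levels also differed from array to array, with the probes deviating together. Whether this came from the anthers or from the hybridization was not tested. The mean over the 21 probes was 9.77, 10.05, 8.87 and 9.18 in the Mu-inactive line and 9.15, 9.99, 9.59 and 8.83 in the Mu-active line. On the way from the mean at 1.0 mm to the mean at 2.0 mm, the Mu-inactive channels had covered 55.3%, 64.9%, 23.5% and 34.4%, and the Mu-active channels 31.2%, 59.9%, 46.2% and 20.4%. Array 2 was the highest for 14 probes in the Mu-inactive line and 17 in the Mu-active line (26.6% and 22.3% of all probes). The lowest was array 3 for 14 probes in the Mu-inactive line and array 4 for 13 in the Mu-active line (23.2% and 27.1%). On Mu-active array 4, 16 of the 21 probes read no higher than the highest 1.0 mm array, and on Mu-active array 1 this held for 11, against 3 on array 2. In the Mu-inactive line this held for 0, 0, 6 and 3 probes on arrays 1 to 4. Part of this order was shared with the 860 other probes that rose by at least 0.7 in both lines at the second step. Their mean at 1.5 mm was 8.88, 8.86, 8.56 and 8.76 in the Mu-inactive line, also lowest on array 3. In the Mu-active line it was 8.58, 8.85, 8.72 and 8.82, also highest on array 2 but lowest on array 1.

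**Figure D3:**
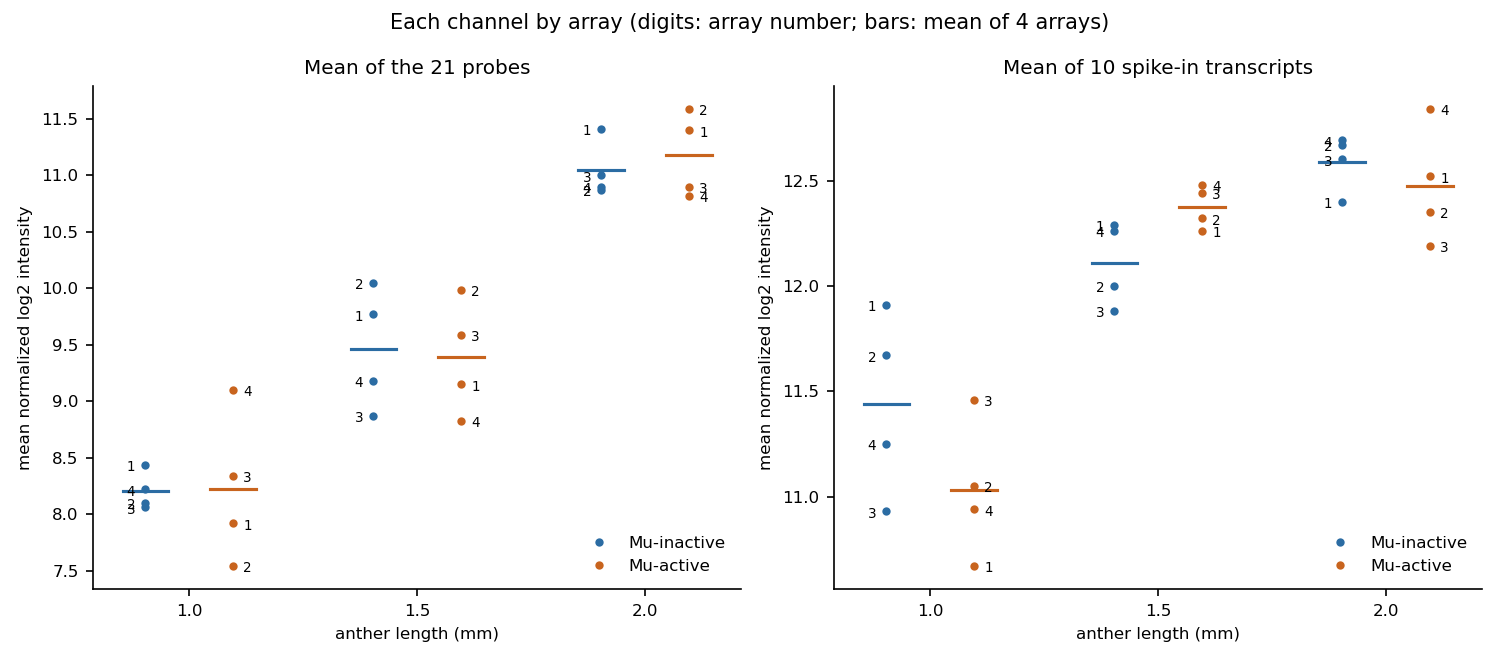
Mean normalized log2 intensity of the 21 probes (left) and of the 10 spike-in transcripts (right) in each channel, by anther length in mm; digits give the array and bars the mean of 4 arrays. The 21 probes spread from 8.87 to 10.05 (Mu-inactive) and 8.83 to 9.99 (Mu-active) at 1.5 mm, where the spike-ins spread from 11.88 to 12.29 and 12.26 to 12.48.

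This division of the 1.5 mm arrays was sharpest for A_92_P038106 (CF632731) and A_92_P010892 (TC313067). A_92_P038106 read 8.85, 8.75, 6.49 and 7.44 in the Mu-inactive line and 6.42, 8.78, 8.62 and 6.30 in the Mu-active line at 1.5 mm. Its 1.0 mm arrays lay between 6.23 and 7.32 and its 2.0 mm arrays between 9.62 and 10.94. The first-step values of 1.26 and 1.19 were therefore means of arrays near the 1.0 mm level and arrays far above it. A_92_P010892 read 9.37 and 9.53 on arrays 1 and 2 of the Mu-inactive line, where the mean of all 4 was 8.48 ± 1.18, and 6.80, 9.53, 8.61 and 7.04 on arrays 1 to 4 of the Mu-active line, with the same arrays high as for A_92_P038106. Without 1.5 mm array 2 or array 3, 13 of the 21 probes still met the rule.

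Other oligonucleotides for the same transcripts were also read. The rule was applied to every probe, so the 4 described here are probes that did not meet it. Of these, 1 shares a gene model with a selected probe and 3 share the name that the array design gives the transcript. None rose by 0.7 at both steps in both lines. This was largely set in advance, because such a probe would have been selected unless its line difference reached the bound. Nothing is read from that count, and the values below are a description. A_92_P035755, the other probe named CF632731, read 7.28, 7.14, 6.35 and 6.56 at 1.5 mm in the Mu-inactive line and, in the Mu-active line, 6.29 on array 1, 6.86 on array 3 and 6.17 on array 4, with array 2 the highest. Thus arrays 1 and 2 of the Mu-inactive line and arrays 2 and 3 of the Mu-active line were again the high ones, as for A_92_P038106. Its mean rose by 0.55 and then 2.27 in the Mu-inactive line and by 0.33 and then 2.69 in the Mu-active line. At 1.0 mm it was above the cutoff for detection on 1 Mu-inactive array and on 0 Mu-active arrays, and at 2.0 mm on all 4 arrays of both lines.

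A_92_P016245, the other probe named TC313563 (GRMZM2G060898), gave smaller first steps than A_92_P040923, 0.52 and 0.27, and second steps of 1.10 and 1.27. A_92_P031081, the other probe for GRMZM5G898684, gave 1.42 and 0.86 at the first step and 0.18 and 0.81 at the second. Like A_92_P012788, it was highest on array 4 of the Mu-active line at 1.0 mm, at 10.49 against 8.66, 7.60 and 9.26. At 1.5 mm neither of these probes had the same arrays high as A_92_P035755. A_92_P016245 was lowest on Mu-inactive array 1 (9.03), and A_92_P031081 was highest on Mu-active array 1 (10.18). The fourth, A_92_P032395, did not follow its partner A_92_P010892 although both are named TC313067. It fell by 1.26 and 1.11 at the first step, gained 0.69 and 0.71 at the second and ended below its 1.0 mm level, at 7.61 ± 0.32 against 8.19 ± 0.25 in the Mu-inactive line.

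**Figure D4:**
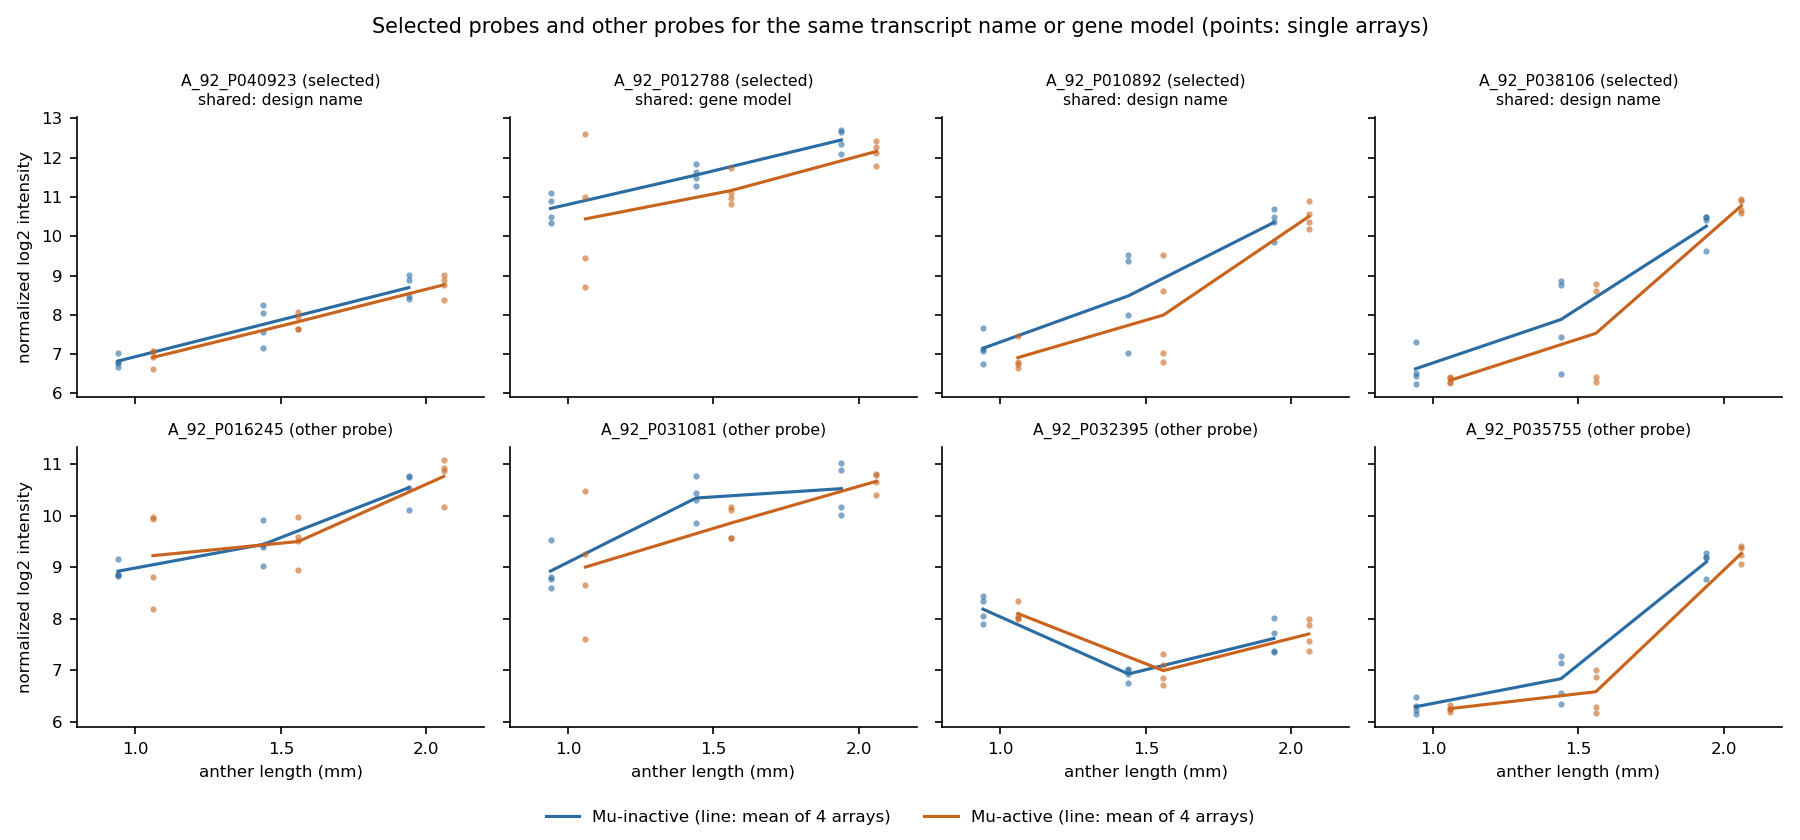
Normalized log2 intensity against anther length in mm for 4 selected probes (top) and for the other probe of the same transcript name or gene model (bottom). Points are single arrays and curves join the means of 4 arrays, in blue for Mu-inactive and orange for Mu-active; A_92_P032395 falls to 6.92 and 6.99 at 1.5 mm while its partner rises.

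The lines were compared within each array with limma. The rule bounds these differences, so the counts are given as a description. Of the 21 probes, 0 were called at an adjusted p under 0.05 at 1.0, 1.5 or 2.0 mm, and 0 had an unadjusted p under 0.05, where 0.374%, 0.471% and 0.866% of all probes were called. Log2 ratios of Mu-active over Mu-inactive ran from -0.49 to 0.52 at 1.0 mm, from -0.49 to 0.33 at 1.5 mm and from -0.43 to 0.58 at 2.0 mm, with a median standard error of 0.33 at each length. The change of the line difference from 1.0 to 1.5 mm or from 1.5 to 2.0 mm was called for 0 of the 21 probes (0 at an unadjusted p under 0.05), and for 0.00952% and 0% of all probes. With a median standard error of 0.47, this does not show that the lines rose equally.

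Single arrays differed between the lines in opposite directions, while the rule itself bounds the mean. At 1.0 mm the median difference of Mu-active minus Mu-inactive was -0.43 on arrays 1 and 2 and 0.59 on arrays 3 and 4, on which the dyes are exchanged. Read by dye, 18 of the 21 probes were higher in red (Cy5) at 1.0 mm, 20 at 1.5 mm and 7 at 2.0 mm, where 51.6%, 48.8% and 52.1% of all probes were. The median of red minus green was 0.52, 0.21 and -0.24. Taken on arrays 1 and 2 alone, the median first step was 1.58 (Mu-inactive) and 1.72 (Mu-active), and on arrays 3 and 4 alone it was 0.74 and 0.58. Only 1, 0 and 2 of the 21 probes had the same sign on all 4 arrays at 1.0, 1.5 and 2.0 mm, against 13.9%, 14.6% and 16% of all probes.

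Just inside the step threshold were A_92_P012788, A_92_P038293 and A_92_P008206, with smallest steps of 0.718, 0.729 and 0.742. Just outside were A_92_P018483, A_92_P006034 and A_92_P016351 (GRMZM5G845611), with 0.696, 0.685 and 0.683. Just outside the bound on the line difference were A_92_P040224, A_92_P036895 and A_92_P028675 (GRMZM2G168365), with 0.583, 0.584 and 0.593. Among the 47 probes set aside by that bound were a lipid transfer protein (GRMZM2G448739), a class of which many members are made in the tapetum, with steps of 2.95 and 1.26 in the Mu-inactive line and 2.76 and 2.24 in the Mu-active line, and a ferredoxin (GRMZM2G122327), the photosystem I subunit PsaF (GRMZM2G085646) and an organic anion transporter (GRMZM2G040033).

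Of the 3 selected probes with a description, 0 fell into any of 16 functional groups formed by keyword among the 1765 described probes, and the other 18 could not be placed. Before the bound on the line difference, rises at both steps were found for 11 of the 1765 (0.623%). By group, where a probe can be in more than one group, they included 1 of 9 probes for lipid transfer proteins and 1 of 37 for proteases and their inhibitors. These appear to be the same probe, that of GRMZM2G448739, whose description names both lipid transfer and trypsin. They also included 1 of 51 for transporters and 1 of 12 for photosynthesis, with 0 of 110 for transcription factors and 0 of 122 for kinases and receptors. Of 50 symbols of known anther genes, 7 could be paired with a probe through the gene models at hand, and none of their 10 probes was among the 21. The other symbols may be on the array under probes without a gene model. The 14 selected probes without a gene model could not be matched to any symbol. Ms26, a cytochrome P450 of the tapetum needed for the pollen wall, changed by 0.03 and 0.06 over the first step and gained 0.70 and 1.15 at the second. Its signal was low at 1.0 and 1.5 mm, at 6.52 and 6.54 in the Mu-inactive line and 6.51 and 6.57 in the Mu-active line. These values are below the median of 6.81 over all probes, so a change at the first step could be hidden. Ocl4, an epidermal homeodomain factor, fell by 1.21 and 1.40 at the first step on A_92_P036875, with second steps of -0.54 and -0.85. Its other probe, A_92_P030365, read low, at 6.95 and 6.92 at 1.0 mm, and had first steps of -0.29 and -0.38 and second steps of -0.24 and -0.11. The meiotic genes Am1, Afd1, Phs1 and Spo11-1 had no step of 0.7 in either direction. Their probes also read low, with means from 6.52 (Spo11-1) to 7.61 (Am1) over both lines and all lengths, so larger changes could be hidden.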

How the data were processed

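The authors deposited 1 scanner file per array, made with Agilent Feature Extraction 9.5.3.1, with median, mean, background and processed intensities of each spot and channel, which are not normalized between arrays, and a table of log2 ratios deposited by the authors, 1 per probe and length. Median foreground intensities were normalized in R 4.3.3 with limma 3.58.1, by loess within arrays (control spots at weight 0) and by quantiles over 24 channels, without background subtraction. The methods of the study name LOWESS and a "quartile" normalization between arrays, for which quantiles were used here, and the weight of control spots is not from them. Each probe for a transcript had 1 spot per array, and only the spots of each spike-in were averaged. The line in each channel was set so that the ratio of Mu-active over Mu-inactive correlated with the deposited log2 ratio (Pearson 0.991, 0.988 and 0.991 at 1.0, 1.5 and 2.0 mm). Taken by number, the labels would exchange the lines throughout, which leaves the 21 probes as they are and swaps the lines' values. Across probes, the ratios of the opposite dye orientations had correlations of -0.019, 0.336 and 0.298.

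The lines were tested with lmFit and eBayes on the ratio within each array, with a coefficient per length and a dye term, and with p-values adjusted (Benjamini-Hochberg) over all probes. Spots flagged as outliers were left out of this fit. The cutoff for detection was the mean plus 3 SD of 153 negative controls of a channel. Relative to the negative controls of the channel, median raw intensities were between 1.21 and 3.15, and 4 arrays per length limit the precision. Of the 21 probes, 18 were well above background on all arrays at 1.0 mm and 0 were saturated.

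Gene models and descriptions came from the study's supplementary tables (7745 probes), and RefSeq symbols for the 7 gene models from the B73 NAM-5.0 table, used for names only. The members, gene lists and named probes were chosen with earlier results of these data known. The named probes are those with the largest rise, with a gene model or description, near a threshold, or sharing a gene model with a member; those sharing a design name were added after their names were seen. Certain probes are not reported here. The procedures were tested on simulated data.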

Additional observations from a re-analysis of the deposited data

Results flagged for a closer look

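In each line and length the 4 arrays of each of the 21 probes were searched for an array far from the other 3 by Dixon's test. Of 126 such groups, 4 held one, where chance gives about 1 in 20. A_92_P011733 (TC292835) read 8.82 on Mu-active array 4 at 1.0 mm, where the others read 6.76 to 6.97, and 9.44 on Mu-inactive array 2 at 1.5 mm, where the others read 7.80 to 8.04. A_92_P038106 (CF632731) read 9.62 on Mu-inactive array 2 at 2.0 mm, below 10.42 to 10.50 on the others. A_92_P038293 (TC300670) read 10.87 on Mu-active array 2 at 2.0 mm, above 9.59 to 9.74 on the others.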

How the results depend on the processing

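All 21 probes kept 4 steps above 0 under 5 alternatives of processing and with each of the 12 arrays left out. The rule had chosen them for steps of at least 0.7 in these data, so this was largely set in advance and is not read as support. With channels shifted to the spike-ins, which is not among the 5, only 4 probes kept all 4 steps above 0. Of the 21, 11 met the full rule under all 5 alternatives and 2 (A_92_P011733 and A_92_P040923) also without each array. Loess alone gave 48 probes that met the rule and 1 other probe of the members' genes that rose at both steps, and it moved the median first step of all probes by 0.483. The processed signal gave 173 probes, 12 of them among the 21, 2 other probes of the members' genes, a median first step of 1.98 in the Mu-inactive line and a median second step of 1.90 in the Mu-active line, and it moved the median second step of all probes by 0.184 and 0.117. Arrays 1 and 2 alone gave 47 probes, 6 of them among the 21, with a median first step of 1.58 and 1.72 (Mu-inactive and Mu-active). Arrays 3 and 4 alone gave 16, of which 0 were among the 21, whose median first step was then 0.74 and 0.58. A step of 0.5 gave 94 probes, and a step of 1.0 gave 8, all among the 21, with a median second step of 2.02 in the Mu-active line. Shifting channels to the spike-ins, an alternative chosen after seeing the data, moved the median steps of all probes by -0.662, -1.354, -0.485 and -0.102, left 1 probe that met the rule, 1 of the 21, and gave median first steps of 0.57 and -0.26, the latter a reversal. The cause was not tested.

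With each array left out, 18 to 43 probes met the rule, 13 to 18 of the 21 still did, and the median first step was 0.98 to 1.45 (Mu-inactive) and 0.86 to 1.42 (Mu-active) and the second 1.03 to 1.35 and 1.22 to 1.49. The lowest number of the 21, 13, came from leaving out 1.5 mm array 2 or array 3, and the highest counts of all probes, 43 and 41, from leaving out 1.0 mm array 4 or array 3. Control spots in the loess fit, or left out wholly, are alternatives added after seeing the data and gave 20 and 24 probes. Of the line tests, 0 calls were made among the 21 in each alternative. No paired analysis was possible because the arrays carry no replicate identity across lengths; the lines share each array, and the array is the pairing within it.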
